A study of Mus musculus with 4 samples.

Results

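Reelin signalling was described here by 8 genes, taken from the deposited table by their names. They were the ligand *Reln*, its receptors *Vldlr* and *Lrp8*, the adaptor *Dab1*, the kinases *Fyn* and *Src* and the adaptors *Crk* and *Crkl*, which make up 8 of the 56883 genes in the table. All 8 passed the filter on low values. RNA was sequenced from tdTomato-positive cells that had been isolated by FACS from the basal telencephalon at E14.5. Control cells carried *Sst-Cre/tdTomato*, and *Dnmt1* KO cells carried *Sst-Cre/tdTomato/Dnmt1 loxP2*, with 2 libraries per genotype, each from cells of several pooled embryos. In both genotypes Cre was expressed from the *Somatostatin* locus and switched on tdTomato, which marks cells that have expressed *Sst*, and in the *Dnmt1* KO it also cut the floxed *Dnmt1* exons. The sexes of the pooled embryos were not distinguished.

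Reelin is a large secreted glycoprotein that steers the positioning of migrating neurons. It binds the lipoprotein receptors VLDLR and LRP8 (also known as the apolipoprotein E receptor) on the receiving cell, and the Src family kinases FYN and SRC then phosphorylate the adaptor DAB1 bound to the receptor tails. Phosphorylated DAB1 recruits CRK and CRKL, PI3K and LIS1, and is then ubiquitinated and degraded. In the embryonic forebrain the best-known source of reelin is the Cajal-Retzius cell of the marginal zone, and many GABAergic interneurons, somatostatin cells among them, also make it.

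*Reln* is the member that changed most, and the stretch in front of its transcription start is shown because Dnmt1 is the enzyme that copies methylation at CpG dinucleotides and this stretch is dense in them. The sequence below is the upstream 250 bases of the RefSeq promoter entry (a table of build GRCm38.p6), placed by exact match at chr5:22549704-22549953 on the minus strand of GRCm39, written 5′ to 3′ with each CpG in capitals. It lies outside the annotated exons of the gene.

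Reln upstream: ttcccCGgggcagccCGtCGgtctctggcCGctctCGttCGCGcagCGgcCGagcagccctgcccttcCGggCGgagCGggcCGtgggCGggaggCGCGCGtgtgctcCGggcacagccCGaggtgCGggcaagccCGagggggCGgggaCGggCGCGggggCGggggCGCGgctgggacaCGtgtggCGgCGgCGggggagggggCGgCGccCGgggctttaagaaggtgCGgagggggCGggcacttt

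These 250 bases held 37 CpG, a motif that reads CG on both strands. The whole promoter window of 300 bases held 47, and only 1.44% of 32851 mouse promoters of the same length held at least as many (median 7, with at least 1 CpG in 94.6%). All 8 genes matched the RefSeq table, with 12 promoters between them. *Src* also held 47 CpG, the promoters of *Dab1* held 12 and 46, and *Fyn*, *Crk* and *Crkl* held 31, 27 and 27. The *Vldlr* promoters held 8 and 23, and the *Lrp8* promoters 21, 5 and 4. DNA methylation was not analysed here. From methyl-sequencing of sorted E14.5 cells, the paper reports less methylation near the *Reln* transcription start in the knockout. It also lists *Reln* among genes whose sites showed both gains and losses. Whether the number of CpG goes with a change in RNA was not tested.

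The deposited values are counts divided by a size factor for each library, called normalized counts below. The libraries held 6970247 to 8376711 recovered reads. *Dnmt1* itself, the targeted gene, had normalized counts of 2238 and 2341 in the control and 2164 and 2210 in the *Dnmt1* KO libraries (log2 fold change -0.07, limma adjusted p = 0.461). The loxP sites flank only some of its exons, and these gene totals do not count those exons apart. For sorted cells of the E14.5 cortex the paper reports fewer *Dnmt1* transcripts in the knockout, and it found weaker DNMT1 staining in labelled cells. Why the total differed so little in the present libraries was not tested.

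**Figure D1:**
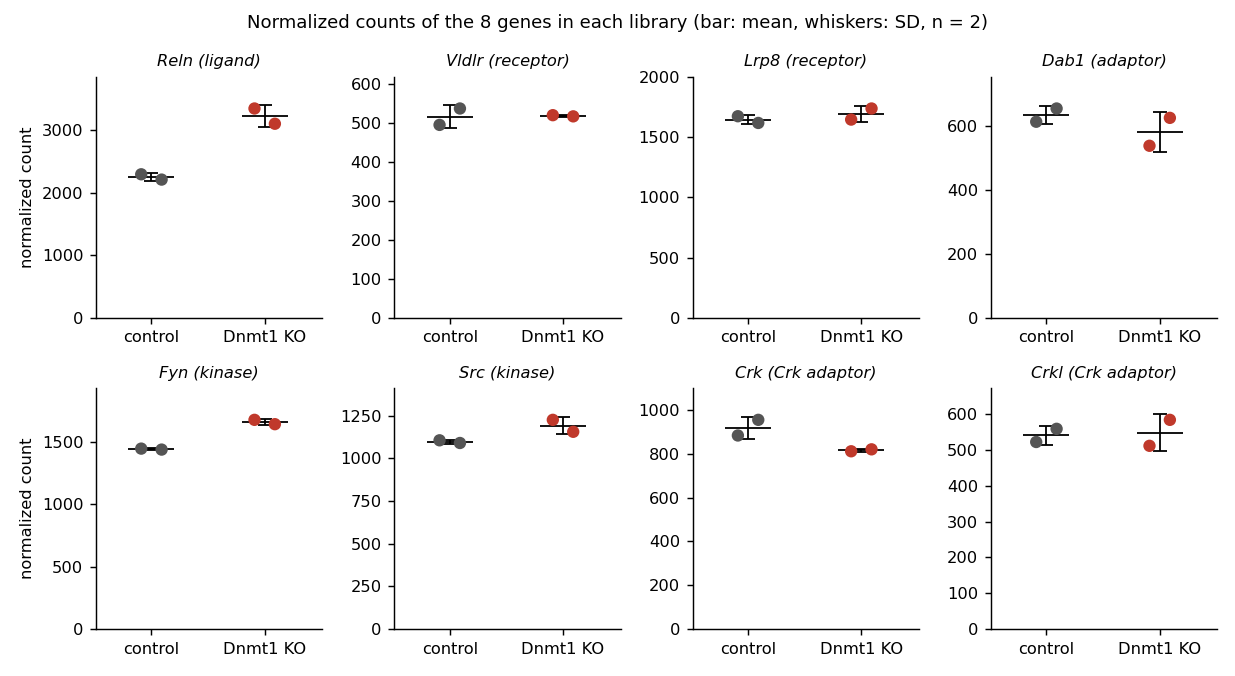
Normalized count (y axis, starting at 0) of each of the 8 genes in the control (grey) and *Dnmt1* KO (red) libraries, 1 point per library, with the mean and SD of 2 libraries in black. Both *Dnmt1* KO libraries lie well above both control libraries for *Reln*, at 3351 and 3106 against 2296 and 2211, and the points of *Vldlr*, *Lrp8*, *Dab1* and *Crkl* overlap between genotypes.

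Among the 8 genes, *Reln* and *Fyn* were called higher in *Dnmt1* KO cells and 0 were called lower by limma at an adjusted p below 0.05. Over all 14323 genes tested, 8.30% were called higher, 8.99% were called lower and 17.3% were called in either direction. Before adjustment, 1 of the 8 genes (*Crk*) was lower at a limma p below 0.05, and edgeR and DESeq2 likewise called 0 lower. The 2 libraries of one genotype lay wholly above or below those of the other for *Reln*, *Fyn*, *Src* and *Crk*, that is, 4 of 8 genes, against 57.4% of all genes tested. The median log2 fold change of the 8 was 0.028 and that of all genes tested was -0.0033.

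*Reln*, the ligand, rose by 43.2%. Its normalized counts were 2296 and 2211 in the control and 3351 and 3106 in the *Dnmt1* KO libraries. Both *Dnmt1* KO libraries were higher than both control libraries, by much more than libraries of 1 genotype differed from each other. The means were 2254 ± 60.1 and 3228 ± 173 (SD, n = 2), and the log2 fold change was 0.52 (SE 0.05, 95% CI 0.40 to 0.63, limma adjusted p = 1.15e-05). Behind these values stood 2166 to 3397 reads per library, and counting error alone would give the fold change an SD of 0.03. A larger log2 fold change was found in 7.85% of the genes tested, and the median over genes called higher was 0.40. The call was kept with each library left out in turn, at log2 fold changes of 0.46 to 0.57, and was lost only when a single prior variance was used for all genes (adjusted p = 0.0923), a setting in which 0 genes of the whole table were called.

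*Reln* (ENSMUSG00000042453) lies on the minus strand of GRCm39 at chr5:22089452-22549700, and its longest coding transcript spans 65 exons. Exons of 2 non-coding genes on the opposite strand, *Gm10475* and *Gm71486*, share 554 and 564 bases with its exons. *Gm10475* was listed at 0 in 3 libraries and at 0.986 in *Dnmt1* KO replicate 1, while *Gm71486* was not matched to the table. Exons on the opposite strand overlapped 7 of the 8 members, *Dab1* being the exception, by 4 to 564 bases per gene. For *Fyn* they belonged to *Gm31616* (465 bases), at 0 to 1.1 normalized counts per library, and to *Gm66543* (172 bases), which was not matched to the table. The kit kept the strand, but whether reads were counted by strand is not given in the sources used here, and without strand such reads cannot be assigned.

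The receptors did not pass the test. *Vldlr*, the very-low-density lipoprotein receptor, had normalized counts of 494.9 and 537.0 in the control and 519.8 and 516.8 in the *Dnmt1* KO libraries. The *Dnmt1* KO values lay between the control values, and the log2 fold change was 0.01 (95% CI -0.18 to 0.19, limma adjusted p = 0.969). *Lrp8* had 1676 and 1620 in the control and 1648 and 1741 in the *Dnmt1* KO libraries. These values overlapped, and the log2 fold change was 0.04 (95% CI -0.09 to 0.17, limma adjusted p = 0.711). The wider of these 95% intervals, that of *Vldlr*, reached 0.19 upward and 0.18 downward on the log2 scale. Intervals from 2 libraries per genotype do not exclude a larger change.

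*Dab1*, the gene for the adaptor bound to the receptor tails, was not called. Its normalized counts were 613.9 and 655.4 in the control and 538.6 and 626.1 in the *Dnmt1* KO libraries. The higher *Dnmt1* KO value lay within the control values, and the means were 635 ± 29.4 and 582 ± 61.9 (SD, n = 2). The log2 fold change was -0.13 (95% CI -0.32 to 0.07, limma adjusted p = 0.380). Without *Dnmt1* KO replicate 1 it was -0.02, so the size of this difference rests largely on that library.

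Of the kinases, *Fyn* was called higher and *Src* was not. *Fyn* had 1445 and 1437 normalized counts in the control and 1676 and 1641 in the *Dnmt1* KO libraries. Both *Dnmt1* KO libraries were above both control libraries, with means of 1441 ± 5.51 and 1658 ± 24.6 (SD, n = 2). The rise was 15.1%, or 0.20 on the log2 scale (SE 0.06, 95% CI 0.08 to 0.33, limma adjusted p = 0.0266). This call was lost when any 1 of the 4 libraries was left out, with an adjusted p of 0.0707 to 0.137, and with DESeq2 (adjusted p = 0.0881), whereas the direction was the same in every setting run.

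*Src*, the kinase related to *Fyn*, had 1106 and 1090 in the control and 1226 and 1156 in the *Dnmt1* KO libraries. The groups did not overlap, but the log2 fold change of 0.12 did not pass the test (95% CI -0.02 to 0.26, limma adjusted p = 0.259). It passed after correction for transcript length and GC content, at 0.21 (limma adjusted p = 0.0399). The log2 ratio of *Fyn* to *Src* within a library was 0.39 and 0.40 in the control and 0.45 and 0.51 in the *Dnmt1* KO libraries. The ratio differed by 0.09 between genotypes (exact permutation p = 0.333, two-sided, adjusted p = 0.444 over 4 ratios), so an unequal change of *Fyn* and *Src* was not shown. With 2 libraries against 2, 0.333 is the smallest p that this exact permutation test can give.

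The adaptors *Crk* and *Crkl*, which bind phosphorylated DAB1 and pass the signal to the small GTPase Rap1, were not called. *Crk* had 885.0 and 956.6 normalized counts in the control and 812.8 and 821.6 in the *Dnmt1* KO libraries. Both *Dnmt1* KO libraries were below both control libraries, and the log2 fold change was -0.17 (95% CI -0.33 to -0.02, limma adjusted p = 0.127). *Crkl* had 522.6 and 559.4 in the control and 511.9 and 584.5 in the *Dnmt1* KO libraries, with a log2 fold change of 0.02 (95% CI -0.18 to 0.21, limma adjusted p = 0.930). The *Crkl* values of the *Dnmt1* KO libraries lay on either side of the control values. The log2 ratio of *Crk* to *Crkl* was 0.76 and 0.77 in the control and 0.67 and 0.49 in the *Dnmt1* KO libraries, a difference of -0.19 (exact permutation p = 0.333, two-sided, adjusted p = 0.444).

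**Figure D2:**
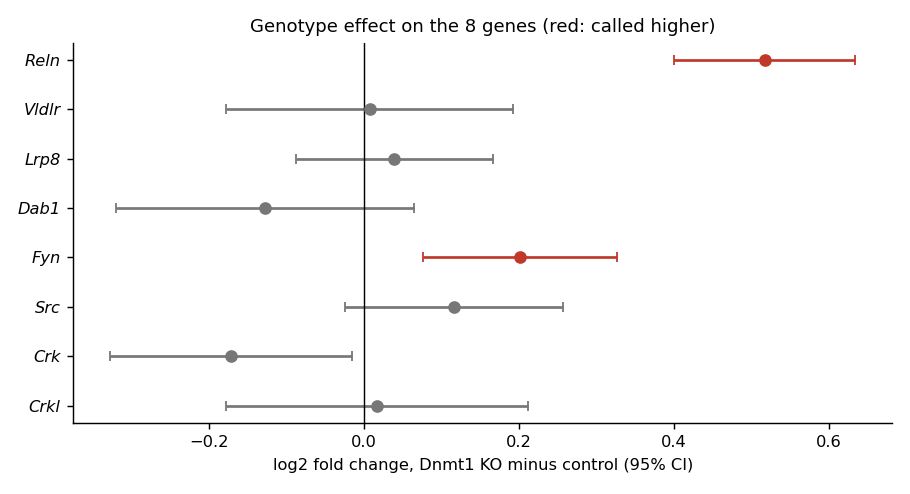
Log2 fold change of each of the 8 genes (x axis, *Dnmt1* KO minus control) with its 95% CI from limma, in red where the gene was called higher. *Reln* stands at 0.52 and *Fyn* at 0.20 with intervals above 0, and the interval of *Crk* lies just below 0 although its adjusted p of 0.127 did not pass the threshold.

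Ratios within a library compare genes without reference to library size. The log2 ratio of *Reln* to *Dab1*, the ligand to the adaptor of the receiving side, was 1.90 and 1.75 in the control and 2.64 and 2.31 in the *Dnmt1* KO libraries. It was higher in both *Dnmt1* KO libraries, by 0.64 (exact permutation p = 0.333, two-sided, adjusted p = 0.444). Between the receptors the log2 ratio of *Vldlr* to *Lrp8* was -1.76 and -1.59 in the control and -1.66 and -1.75 in the *Dnmt1* KO libraries, which overlapped (difference -0.03, exact permutation p = 1.00).

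Levels of different genes were compared as normalized counts per kilobase of the transcript with the longest coding sequence. In control cells *Fyn* had the highest level, at 312 ± 1.19 per kilobase, followed by *Src* at 248 ± 2.51, *Crk* at 205 ± 11.3, *Lrp8* at 203 ± 4.88 and *Reln* at 193 ± 5.14 (SD, n = 2). *Dab1*, *Crkl* and *Vldlr* followed at 116 ± 5.37, 107 ± 5.14 and 62.0 ± 3.58 (SD, n = 2). Of the neighbours in this order, only *Crk* and *Lrp8* overlapped in range.

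In *Dnmt1* KO cells *Reln* moved from rank 5 to rank 2, at 276 ± 14.8 per kilobase, behind *Fyn* at 359 ± 5.32 (SD, n = 2). Its range overlapped that of *Src* at 268 ± 11.2, and *Lrp8* at 209 ± 8.05 now lay above *Crk* at 182 ± 1.40 (SD, n = 2). *Crkl* at 108 ± 10.1 and *Dab1* at 106 ± 11.3 overlapped, and *Vldlr* was again lowest at 62.3 ± 0.257 (SD, n = 2). *Lrp8* thus had the higher level per kilobase of the 2 receptors in all 4 libraries, at 200 to 215 against 59.5 to 64.6. The order depends on the length chosen for each gene, since with the union of all annotated exons *Src* stood first in both genotypes and *Reln* moved from rank 6 to rank 4.

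**Figure D3:**
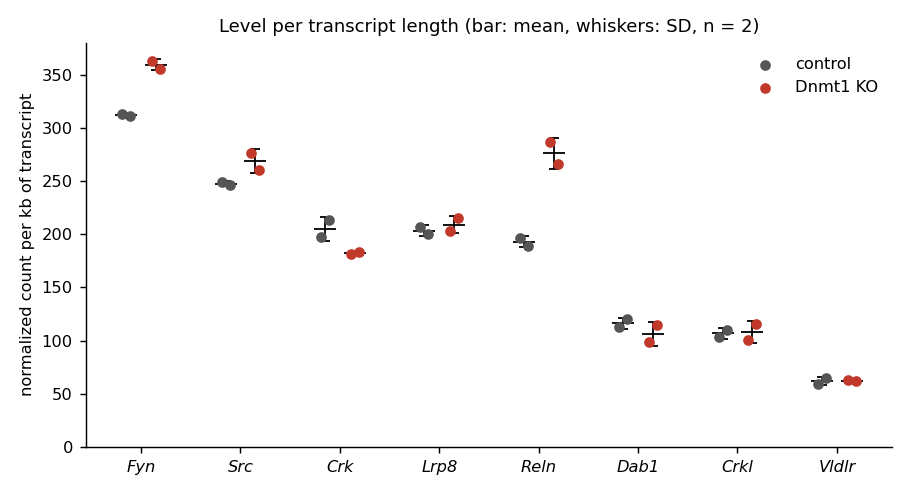
Normalized count per kilobase of transcript (y axis, starting at 0) of the 8 genes, ordered by their control level, with 1 point per library (grey control, red *Dnmt1* KO) and the mean and SD of 2 libraries in black. *Reln* moves from 193 to 276 and *Vldlr* stays lowest at 62.0 and 62.3.

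Another 57 genes that act in the pathway were sorted into 8 steps. Of these, 53 were tested, 7 were called higher and 2 were called lower, and their median log2 fold change was 0.03. Together 17.0% of them were called, against 17.3% of all genes tested, and the libraries of the 2 genotypes did not overlap for 34, or 64.2%, against 57.4%. The other 4 were too low to be tested.

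The largest changes of the list were in the proteases that cut reelin, and they went in opposite directions. *Adamts5* had 49.2 and 59.2 normalized counts in the control and 126 and 109 in the *Dnmt1* KO libraries, a rise of 1.11 on the log2 scale (SE 0.20, limma adjusted p = 0.00146). *Adamts3*, which cleaves the amino-terminal part of reelin, had 157 and 129 in the control and 76.0 and 80.9 in the *Dnmt1* KO libraries and fell by 0.85 on the log2 scale (SE 0.18, limma adjusted p = 0.00368). Neither gene overlapped between genotypes, and both had low counts compared with the 8 members. Without control replicate 1 *Adamts3* was no longer called (log2 fold change -0.71, limma adjusted p = 0.0670). The other 4 tested genes of this step, which include the proteases *Furin* and *Plat*, had log2 fold changes of -0.21 to 0.40 and were not called.

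On the receptor side, 0 of the 4 tested genes for receptor chaperones and turnover were called by limma, edgeR or DESeq2, 0 had an unadjusted limma p below 0.05, and their log2 fold changes ran from -0.37 to 0.13. Of 5 other partners that bind reelin, only the ephrin *Efnb2* was called. *Efnb2* had 1953 and 2004 normalized counts in the control and 2617 and 2515 in the *Dnmt1* KO libraries, and rose by 0.37 on the log2 scale (SE 0.05, limma adjusted p = 0.000196). The integrin subunits *Itga3* and *Itgb1* and the ephrins *Efnb1* and *Efnb3* had log2 fold changes of -0.20 to 0.09.

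Among 7 genes for the turnover and binding of DAB1, *Socs7*, which brings phosphorylated DAB1 to its ubiquitin ligase, was called higher. It had 743 and 651 normalized counts in the control and 882 and 809 in the *Dnmt1* KO libraries (log2 fold change 0.28, SE 0.08, limma adjusted p = 0.0318). The call was lost without control replicate 2 (0.18, limma adjusted p = 0.230), without *Dnmt1* KO replicate 1 (0.22, limma adjusted p = 0.170) and with DESeq2 (adjusted p = 0.112). The ligase subunits *Cul5* and *Rnf7* and the other 4 genes of the step were not called.

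Of 7 genes between CRK and cadherin, *Rap1gap*, which switches off Rap1, was called higher. Its normalized counts were 210 and 179 in the control and 279 and 241 in the *Dnmt1* KO libraries (log2 fold change 0.42, SE 0.13, limma adjusted p = 0.0392). That call too was lost without control replicate 2 (0.30, limma adjusted p = 0.239), without *Dnmt1* KO replicate 1 (0.32, limma adjusted p = 0.218) and with DESeq2 (adjusted p = 0.194). The exchange factor *Rapgef1*, the GTPases *Rap1a* and *Rap1b* and the N-cadherin gene *Cdh2* were not called. Of the 5 tested Src family kinases and regulators beside *Fyn* and *Src*, 0 were called by limma, edgeR or DESeq2 and 0 had an unadjusted limma p below 0.05, at log2 fold changes of -0.63 to 0.03.

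In the PI3K branch, which ends on the microtubule protein tau and on cofilin, 1 of 12 genes was called. This was *Mapt*, the gene for tau, at 5399 and 5605 normalized counts in the control and 6694 and 6934 in the *Dnmt1* KO libraries (log2 fold change 0.31, SE 0.04, limma adjusted p = 0.000162). The kinases *Akt1*, *Akt2* and *Gsk3b* were not called. Before adjustment, 3 genes of the branch, *Mapt* and *Gsk3b* among them, were higher and 1 was lower at a limma p below 0.05.

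In the branch of LIS1, a regulator of dynein, 3 of 7 genes were called by limma and 2 by DESeq2, beside 17.3% of all genes tested with limma. The steps were not compared by a test. *Cdk5r1*, which activates the kinase CDK5, had 2646 and 2849 normalized counts in the control and 3525 and 3366 in the *Dnmt1* KO libraries (log2 fold change 0.33, SE 0.05, limma adjusted p = 0.000598). *Pafah1b2*, a catalytic subunit of the acetylhydrolase that LIS1 also belongs to, had 1618 and 1579 in the control and 1859 and 1971 in the *Dnmt1* KO libraries and rose by 0.26 on the log2 scale (limma adjusted p = 0.00633), and without *Dnmt1* KO replicate 2 its adjusted p was 0.0629. *Nde1*, a LIS1 partner needed in dividing progenitors, had 181 and 206 in the control and 138 and 123 in the *Dnmt1* KO libraries and fell by 0.56 on the log2 scale (SE 0.15, limma adjusted p = 0.0150). *Nde1* was not called without control replicate 2 (adjusted p = 0.140), without *Dnmt1* KO replicate 2 (adjusted p = 0.0581) or with DESeq2 (adjusted p = 0.108). *Pafah1b1*, the gene for LIS1 itself, *Pafah1b3*, *Ndel1* and *Cdk5* were not called.

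**Figure D4:**
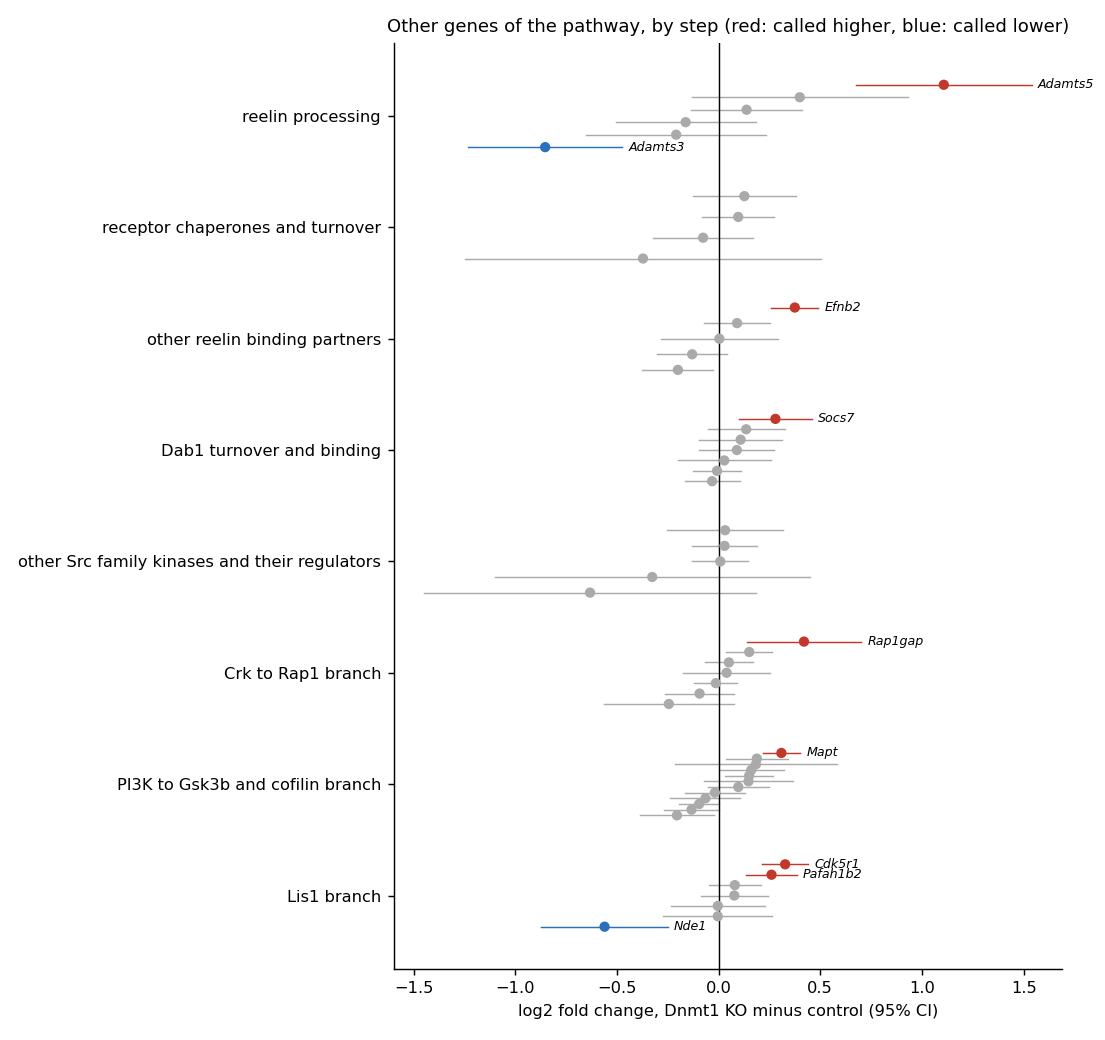
Log2 fold change (x axis, *Dnmt1* KO minus control, with 95% CI from limma) of the 53 tested genes of the pathway beyond the 8 members, grouped by step on the y axis, red where called higher and blue where called lower. The 7 red and 2 blue genes are named, and they fall in 6 of the 8 steps.

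Markers of cell types moved with genotype in the same libraries. Of 14 markers of the *Sst* interneuron, 13 were called higher at log2 fold changes of 0.34 to 1.12, and *Nkx2-1* was not called at -0.03. The list is not specific to *Sst* cells, since the paper names *Dlx1*, *Dlx2*, *Dlx5*, *Lhx6*, *Maf* and *Satb1* as regulators of GABAergic interneurons. *Sst* itself had 5580 and 5963 normalized counts in the control and 8303 and 7825 in the *Dnmt1* KO libraries. The summed level of the list was 24256 to 24597 in the control and 37550 to 37823 in the *Dnmt1* KO libraries. The share of labelled cells in each library was not measured here.

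Markers of the Cajal-Retzius cell, another source of *Reln*, were lower in the *Dnmt1* KO libraries. All 10 had a negative log2 fold change and 7 were called lower, among them *Lhx1* at -1.77 and *Barhl2* at -1.93, and none was at 0. Their summed level was 1574 to 1749 in the control and 848 to 854 in the *Dnmt1* KO libraries. *Trp73*, one of the defining markers of these cells, had 45.6 and 43.9 normalized counts in the control and 26.6 and 29.5 in the *Dnmt1* KO libraries (limma adjusted p = 0.138). *Tbr1*, 1 of the 10, is also on the list of the excitatory lineage. At 774 and 775 in the control and 520 and 459 in the *Dnmt1* KO libraries, *Tbr1* had the highest level of the 10. Which cells the *Reln* reads came from was not tested.

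The remaining lists were also mostly lower. Of 10 markers of the pallial excitatory lineage 8 were called lower, and their summed level was 3243 to 3260 in the control and 1590 to 1737 in the *Dnmt1* KO libraries. Of 9 radial glia markers 7 were called lower and *Sox2* was called higher (summed level 10704 to 10835 and 6340 to 6558). All 7 tested blood markers were called lower (2397 to 2587 and 576 to 589), as were 8 of 9 tested markers of vascular cells and microglia (662 to 715 and 282 to 302). Markers of these lists that were not tested had too low a level.

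**Figure D5:**
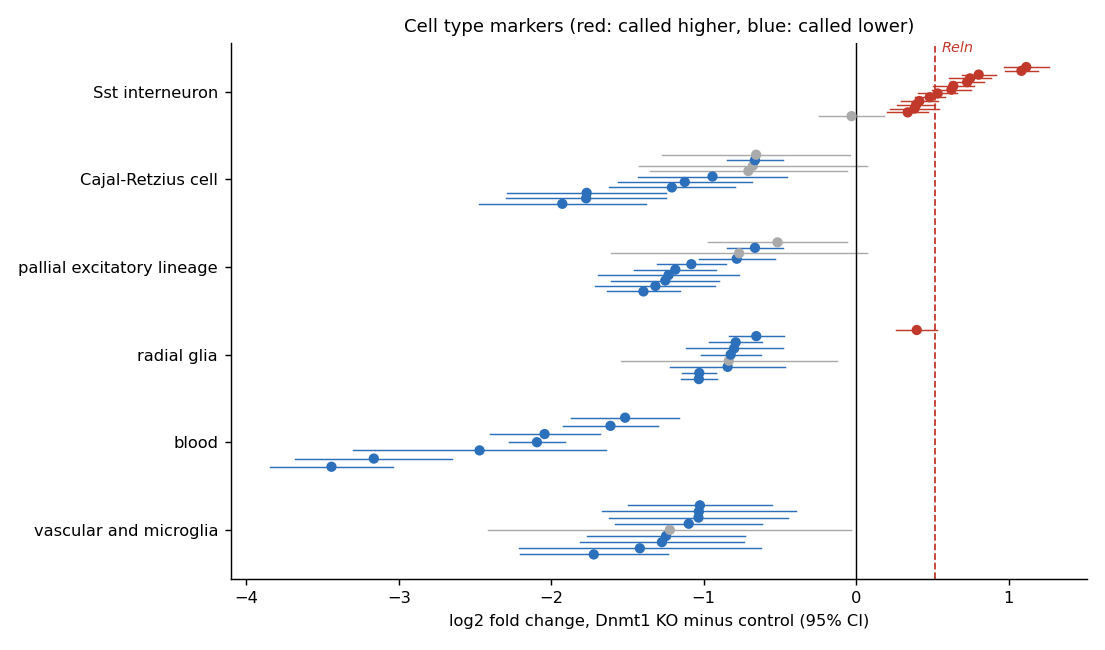
Log2 fold change (x axis, *Dnmt1* KO minus control, with 95% CI from limma) of the tested markers of 6 cell types, 1 row of points per list, red where called higher and blue where called lower. The dashed line marks *Reln* at 0.52, which lies within the span of the *Sst* interneuron markers (0.34 to 1.12 where called) and above every marker of the other 5 lists.

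Set against the *Sst* markers, most of which themselves changed with genotype, *Reln* moved little. The paper reports several of these markers, *Lhx6*, *Sox6*, *Maf* and *Erbb4* among them, as raised in *Dnmt1* KO cells, as it does *Reln*. The marker mean is therefore not a fixed reference. The log2 ratio of *Reln* to *Sst* was -1.28 and -1.43 in the control and -1.31 and -1.33 in the *Dnmt1* KO libraries, which overlapped (difference 0.03). Its ratio to the mean log2 level of all 14 interneuron markers was 0.71 and 0.67 in the control and 0.68 and 0.55 in the *Dnmt1* KO libraries, which also overlapped (difference -0.07). For *Fyn* the same ratio was 0.04 and 0.04 in the control and -0.32 and -0.37 in the *Dnmt1* KO libraries, a difference of -0.39. The mean of the markers itself was higher by 0.59, so the ratio of a gene with no change of its own would be lower by the same amount. The ratios of the other 6 genes lay on either side of that, with differences from -0.47 (*Src*) to -0.76 (*Crk*). These ratios were chosen after the values were seen. In bulk samples a change in the number of cells of a type and a change in RNA per cell cannot be told apart, and the part of cell composition in the changes of *Reln*, *Fyn* and the other pathway genes was not tested.

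The 5 protein-coding genes whose centred log2 profile over the 4 libraries was closest to that of *Reln*, out of 3054 searched (mean of 500 or more normalized counts), were *Nopchap1*, *Osbpl8*, *Calb1*, *Tmem178b* and *Gria2*. Their Euclidean distances from *Reln* were 0.03 to 0.06 on the log2 scale. *Nopchap1*, a chaperone for small nucleolar ribonucleoproteins, had 745 and 705 normalized counts in the control and 1061 and 984 in the *Dnmt1* KO libraries. *Calb1*, the gene for the calcium-binding protein calbindin, had 578 and 580 and then 849 and 813. *Gria2*, a subunit of AMPA receptors, had 1317 and 1339 and then 1949 and 1807. As in *Reln*, *Dnmt1* KO replicate 1 was the highest library for each of the 5, which follows from how they were chosen. With 4 libraries many genes can share such a profile.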

How the data were processed

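Per the labels, the authors used Trim Galore for trimming, STAR for alignment to GRCm39, Salmon for quantification and DESeq2 1.32.0 for normalization. The signal deposited for each gene is its count after division by a library's size factor. All values above 0 (100%) were whole multiples of 1 unit per library to within 0.0001 of a read, so whole reads were recovered. Whether counting used the strand is not given in the sources used here. Reads shared between related genes were not measured here.

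Genes averaging 10 or more normalized counts entered limma 3.58.1 (eBayes with a variance trend, R 4.3.3) as log2(normalized count + 1), with genotype as the only term and Benjamini-Hochberg adjustment over 14323 genes. A gene was called below 0.05. Fold changes are on this log2(value + 1) scale. Since nothing separates litters beyond the pools, p-values rest on the spread between pooled libraries. In limma the variance of each gene is also drawn toward that of genes at a similar level. On the recovered reads, edgeR 4.0.16 called 1226 genes higher and 1302 lower. Ratios were compared by exact permutation in Python 3.11.15 with scipy 1.17.1. The main limma fit, but no other step, was tested on simulated counts.

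Named genes were the 8 members, the called pathway genes, the 5 genes most like *Reln* with a mean of at least 500, *Dnmt1*, and markers that a result turned on. Members, lists and tests were chosen with earlier results of these data known. Genes of the lists that were not called are named by their role. Some single genes of the lists are not reported here. Gene models came from the GENCODE annotation of GRCm39 and promoters from RefSeq.

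Alternatives were pseudocounts of 0.5 and 10, minimum means of 1 and 50 or only a value above 0, TMM factors, quantile normalization, a single prior variance, edgeR, DESeq2 1.42.0, limma-voom, removal of the trend over transcript length and GC content, leaving out each library, and the replicate number as a block. With a library left out, the lone library of that genotype is assumed to vary like the others.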

Additional observations from a re-analysis of the deposited data

How the results depend on the processing

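Of 136 fits of the 8 members under 17 alternatives, 119 kept their direction and their side of the threshold, 9 lost a call, 1 gained one and 7 turned direction without being called. *Reln* (0.52) and the whole table (0 genes called higher, 0 lower) lost their calls with a single prior variance, so that 0 members and 0 pathway genes in either direction were called. *Fyn* lost its call with only a value above 0 required (0.20), quantile normalization (0.16), a single prior variance (0.20) and DESeq2 (0.21), which leaves 1 member called with the first, the second and DESeq2. *Src* was called at 0.21 without the length and GC trend. Directions turned with quantile normalization for *Vldlr* (-0.013), *Lrp8* (-0.013) and *Crkl* (-0.0015), and without the length and GC trend for *Vldlr* (-0.018). DESeq2 called 640 genes higher and 687 lower, against 1189 and 1287, and 1 pathway gene lower, against 2.

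With a library left out, 787 to 959 genes were called higher and 738 to 1246 lower, with the fewest in both directions without control replicate 2. The members called numbered 1 each time, the pathway genes called lower 1 to 2, with 1 without control replicate 2 or *Dnmt1* KO replicate 2, and the log2 fold change of *Fyn* was 0.19 to 0.22. That of *Vldlr* was -0.051 to 0.067, turning without control replicate 1, and that of *Crkl* was -0.079 to 0.11, turning without control replicate 1 (-0.032) or *Dnmt1* KO replicate 2. The change in the log2 ratio of *Vldlr* to *Lrp8* was -0.12 to 0.05, turning without control replicate 2 (0.052) or *Dnmt1* KO replicate 2 (0.012). Where no construction is named, the cause was not tested.

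Levels per kilobase moved with the length used. With the union of all annotated exons the control and *Dnmt1* KO levels were 94.9 and 136 for *Reln*, 50.7 and 51.0 for *Vldlr*, 126 and 130 for *Lrp8*, 62.5 and 57.4 for *Dab1*, 125 and 144 for *Fyn*, 187 and 203 for *Src* and 169 and 150 for *Crk*, and the control level of *Crkl* was 97.0. With the longest transcript they were 249 and 286 for *Fyn* and 185 and 164 for *Crk*, and 62.0 for *Vldlr* in *Dnmt1* KO cells.

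With the replicate number as a block (replicate block), 1402 genes were called higher and 1555 lower, 2 members higher and 0 lower, and 8 pathway genes higher and 2 lower. Over the genes tested, the difference between the 2 control libraries correlated at -0.085 with that between the 2 *Dnmt1* KO libraries. The numbers are therefore not taken to pair the libraries.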
